A study of Homo sapiens with 54 samples.

Results

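The 10 genes described here are the AP-1 and immediate early genes FOS, FOSB, FOSL1, FOSL2, JUN, JUNB, JUND, ATF3, EGR1 and MAFF. They were chosen by symbol from the 27470 genes of the table, with earlier results of these data known. Counts of called genes set beside the shares over all genes are therefore descriptions and not independent support. Each of the 10 genes had 1 row, and all 10 passed the filter on low values in both cell lines. FOS, FOSB, FOSL1, FOSL2, JUN, JUNB and JUND are the subunits of the dimeric transcription factor AP-1, ATF3 and MAFF are related basic leucine zipper factors, and EGR1 is a zinc finger factor. Expression was measured in 54 libraries of 2 established triple negative breast cancer (TNBC) lines, SUM1315, labelled as BRCA1 mutant, and MDA-MB-468, labelled as BRCA1 wild type. Each line was grown in 9 conditions with 3 libraries per condition. Parental cells were left untreated or were exposed overnight to the PARP inhibitor olaparib (8 µM in SUM1315, 3 µM in MDA-MB-468), to cisplatin (CDDP, a drug that cross-links DNA) at a lower or a higher dose (2 and 4 µM in SUM1315, 1 and 2.5 µM in MDA-MB-468), or to olaparib with either CDDP dose. Olaparib-resistant (OlaR) cells, selected over months in rising olaparib, were kept in olaparib without a break (25 µM in SUM1315, 15 µM in MDA-MB-468) and received no CDDP or either dose. OlaR and olaparib-treated parental cells therefore differed in resistance and in the dose and length of olaparib exposure, which cannot be told apart, and each line had 1 OlaR population. Whether OlaR and parental libraries were sequenced in the same batch is not stated. Nothing states that the 3 libraries of a condition came from separate cultures, so the p-values measure the spread between these libraries, which may be technical.

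Immediate early genes are transcribed soon after a growth factor or a stress reaches the cell, without new protein being made first, through the ERK, JNK and p38 kinases and the factors these phosphorylate. Their products pair as AP-1 dimers or bind DNA as single factors such as EGR1, and pass the signal on to slower genes for growth, survival, migration and cell death. JUN and ATF3 are known for their induction by DNA-damaging agents, FOS and EGR1 for serum response elements (CArG boxes) bound by SRF, and FOSL1, FOSL2, JUNB and JUND are subunits that last longer in the cell than FOS.

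Because the libraries were made from the 3′ ends of transcripts, the promoters were not read, and they are shown to place the genes whose values the results turn on. RefSeq promoters on GRCh38.p14 were matched for 9 of the 10 genes, and only the stretch outside annotated exons is printed. The window of MAFF lay wholly in annotated exons, and FOSL1 was not matched. Only the first listed start of each gene was taken, and reads at 3′ ends do not show which start was used. Capitals mark the CArG boxes of EGR1 (chr5:138465229-138465478, plus strand), the letters TGACATCA in JUN (chr1:58784049-58784269, minus strand) and in ATF3 (chr1:212565157-212565333, plus strand), and the cyclic AMP response element TGACGTCA in JUND (chr19:18281623-18281872, minus strand).
EGR1: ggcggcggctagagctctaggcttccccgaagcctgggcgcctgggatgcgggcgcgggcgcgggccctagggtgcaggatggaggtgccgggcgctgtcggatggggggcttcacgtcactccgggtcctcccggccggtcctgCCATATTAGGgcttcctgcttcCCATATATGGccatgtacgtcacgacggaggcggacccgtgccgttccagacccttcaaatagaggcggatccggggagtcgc
JUN: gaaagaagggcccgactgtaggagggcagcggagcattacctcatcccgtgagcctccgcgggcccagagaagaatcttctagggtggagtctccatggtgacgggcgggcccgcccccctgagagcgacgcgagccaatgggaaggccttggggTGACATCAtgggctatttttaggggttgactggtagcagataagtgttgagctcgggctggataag
ATF3: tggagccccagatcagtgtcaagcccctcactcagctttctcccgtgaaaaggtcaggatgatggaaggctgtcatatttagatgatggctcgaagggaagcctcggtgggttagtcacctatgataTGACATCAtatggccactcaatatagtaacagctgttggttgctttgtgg
JUND: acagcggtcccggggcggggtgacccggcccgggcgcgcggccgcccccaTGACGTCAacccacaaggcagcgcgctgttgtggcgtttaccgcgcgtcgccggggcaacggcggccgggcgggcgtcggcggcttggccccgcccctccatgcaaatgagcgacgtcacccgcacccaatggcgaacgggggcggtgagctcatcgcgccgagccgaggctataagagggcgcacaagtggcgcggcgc

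On both strands of the 250 bases before the start, a CArG box was held by 1.14% of 27305 promoters and by 1 of the 9 matched genes, EGR1, whose boxes began 105 and 83 bases before the start. TGACGTCA was held by 1.77% of promoters and by 2 of the 9, JUND and MAFF. The consensus AP-1 letters TGANTCA were held by 6.6% of promoters and by 0 of the 9. TGACATCA, searched for after these sequences had been read, was held by 2.45% of promoters and by 2 of the 9, JUN (67 bases before the start) and ATF3 (123 bases). A match is a run of letters, and binding was not measured. Bases beyond this window were not searched, so a CArG box of FOS further upstream would not have been counted. The genes themselves lie at chr5:138465479-138469303 (EGR1, plus strand), chr14:75278826-75282230 (FOS, plus strand), chr1:58776845-58784048 (JUN, minus strand) and chr1:212565334-212620777 (ATF3, plus strand) in the GRCh38 annotation.

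Reads per library ranged from 4977284 to 7540920 in SUM1315 parental cells and from 3446613 to 4665505 in SUM1315 OlaR cells. The same ranges were 5574767 to 9268162 and 2070301 to 4676284 in MDA-MB-468, so OlaR libraries were the shallower ones in both lines. MDA-MB-468 libraries held the epithelial markers EPCAM (2631 to 3793 adjusted reads) and KRT19, whereas in SUM1315 neither gene exceeded 5 reads and the mesenchymal gene VIM stood at 7929 to 13250. The epithelial keratins KRT18 and KRT8 were read in SUM1315 too, at 230.8 to 597.8 and 17.74 to 154.0 adjusted reads. In MDA-MB-468 they stood at 583.8 to 833.5 and 447.5 to 924.8. The epithelial genes CDH1 and KRT5 did not exceed 3 and 17 reads in SUM1315. The levels below are adjusted read counts, that is the authors' counts brought to a common library size, and a fold change is on the log2(adjusted count + 1) scale, which understates the change of low genes. A gene was called at an adjusted p of at most 0.05 in limma, with Benjamini-Hochberg adjustment over all 13133 genes tested in SUM1315 or all 13012 in MDA-MB-468. In bulk RNA, fewer cells expressing a gene and less RNA per cell cannot be told apart. Reads at 3′ ends are not compared between genes.

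EGR1 and FOS were lower in OlaR cells than in olaparib-treated parental cells of both lines, and EGR1 was the gene of the 10 with the widest range of levels. EGR1, which turns growth factor and stress signals into transcription, stood at 1470, 1511 and 1215 in the 3 SUM1315 parental libraries under olaparib and at 56.4, 64.6 and 53.5 in the 3 OlaR libraries. The fall was 4.56 on the log2 scale (SE 0.14, limma adjusted p = 3.56e-23, n = 3 and 3). In MDA-MB-468 EGR1 stood at 318.5, 280.5 and 380.4 under olaparib and at 69.8, 92.5 and 78.9 in OlaR cells, a log2 fold change of -2.01 (SE 0.13, limma adjusted p = 4.52e-19). The libraries of the compared groups did not overlap in either line. Over all conditions the 18 parental libraries of SUM1315 lay between 920.5 and 3463 (median 1284) and the 9 OlaR libraries between 23.4 and 64.6 (median 53.5). In MDA-MB-468 the 18 parental libraries lay between 280.5 and 828.3 (median 560.5) and the 9 OlaR libraries between 48.7 and 120.9 (median 83.0). Every OlaR library therefore held less EGR1 than every parental library of its line, whatever CDDP it had received. The condition with the most EGR1 in both lines was the untreated parental one, 121.4-fold above the lowest condition in SUM1315 and 11.7-fold in MDA-MB-468.

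FOS, the founding Fos subunit of AP-1, was close to its detection limit in SUM1315 OlaR cells. It had 0, 3 and 1 reads in the 3 OlaR libraries, 4 of 11122183 reads in all, against 203 of 18985614 reads in the 3 libraries of olaparib-treated parental cells. The share of reads was 29.7 times as high in the parental cells (95% exact interval of the ratio 11.4 to 110.0, which covers counting error only). Limma gave a log2 fold change of -4.52 (SE 0.46, adjusted p = 9.69e-10), which at so few reads depends on the pseudocount. With 2 µM CDDP the OlaR libraries had 10, 2 and 5 FOS reads, and with 4 µM they had 8, 7 and 1. The 9 OlaR libraries did not exceed 13.7 adjusted reads and the 18 parental libraries did not fall under 35.0. In MDA-MB-468 FOS stood at 115.9, 78.8 and 71.6 under olaparib and at 63.6, 50.3 and 34.9 in OlaR cells, without overlap, a log2 fold change of -0.84 (SE 0.20, limma adjusted p = 0.000473). The fall was larger in SUM1315 for both genes, with differences of -3.69 for FOS (limma adjusted p = 2.58e-07) and -2.56 for EGR1 (adjusted p = 3.86e-14) on the log2 scale, at olaparib doses that differed between the lines.

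**Figure D1:**
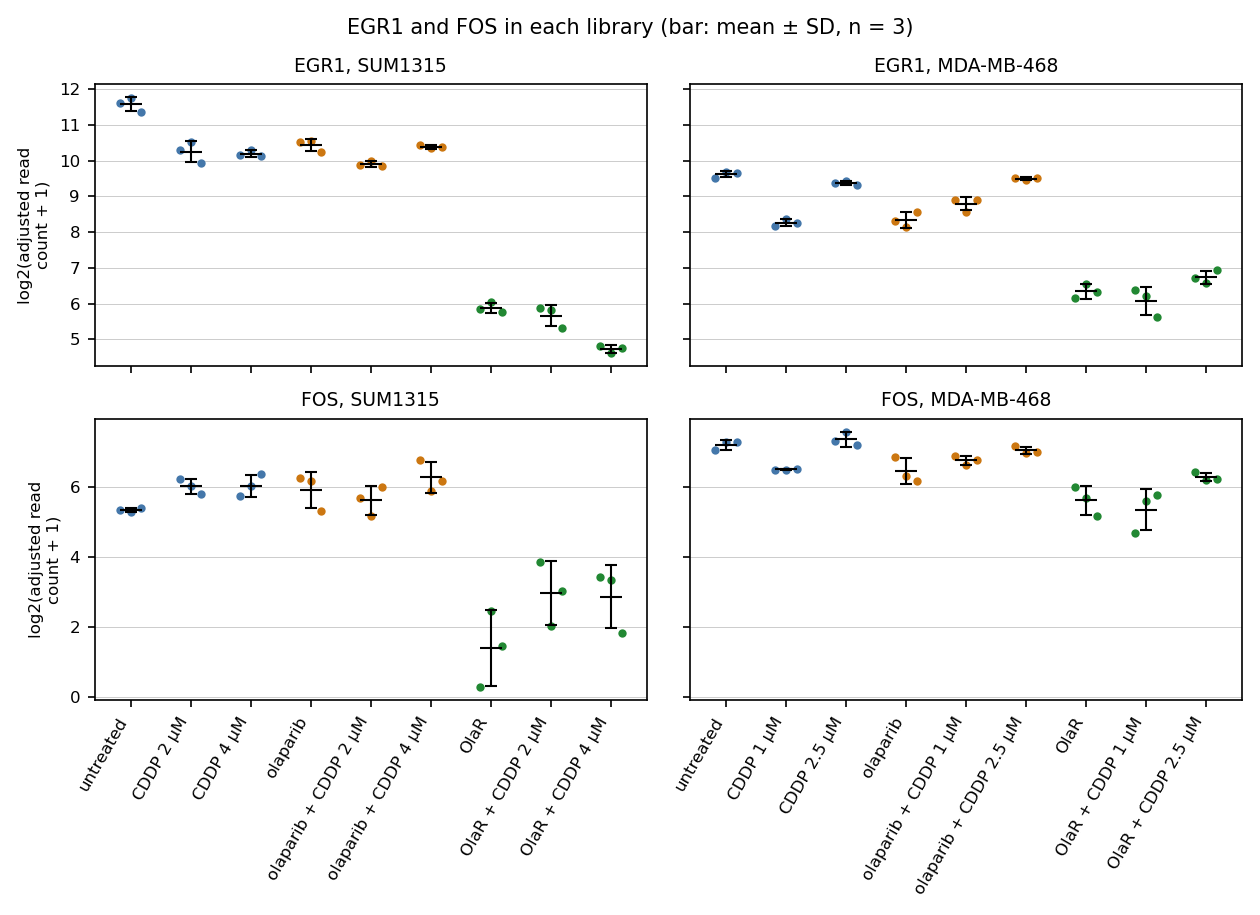
EGR1 (top) and FOS (bottom) in SUM1315 (left) and MDA-MB-468 (right). The vertical axis is log2(adjusted read count + 1), points are single libraries, bars are the mean ± SD of the 3 libraries on that scale, and blue, orange and green mark parental cells without olaparib, parental cells with olaparib and OlaR cells. The 9 OlaR libraries of SUM1315 reach at most 64.6 adjusted reads for EGR1 and 13.7 for FOS, apart from all 18 parental libraries.

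The remaining genes went both ways in OlaR cells. In SUM1315 OlaR cells against olaparib-treated parental cells, 5 of the 10 genes were called higher (FOSL1, FOSL2, JUN, JUND and MAFF) and 3 lower (FOS, EGR1 and JUNB), where 21.6% of all genes tested were called higher and 25.7% lower. In MDA-MB-468, 2 were called higher (JUNB and MAFF) and 4 lower (FOS, EGR1, JUN and JUND), where 23.6% of all genes were called higher and 27.9% lower. The lower calls of SUM1315 and the higher calls of MDA-MB-468 thus came close to the background shares. All 6 calls of MDA-MB-468 also passed in edgeR and in DESeq2. JUN, an AP-1 subunit that JNK phosphorylates, moved in opposite directions in the lines. It stood at 532.8, 511.7 and 390.7 under olaparib and at 1190, 1116 and 1260 in OlaR cells of SUM1315, a log2 fold change of 1.32 (SE 0.10, limma adjusted p = 3.17e-12). In MDA-MB-468 it stood at 436.1, 422.5 and 467.4 under olaparib and at 368.8, 374.9 and 302.9 in OlaR cells, a log2 fold change of -0.35 (SE 0.08, limma adjusted p = 0.000212). The groups did not overlap in either line. The difference between the lines in this change was 1.67 for JUN (SE 0.13, limma adjusted p = 2.14e-14).

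JUNB and JUND, Jun proteins that can oppose JUN, also parted by line. JUNB was lower in SUM1315 OlaR cells (2003, 1877 and 1941 against 3282, 3263 and 2256, a log2 fold change of -0.58, limma adjusted p = 0.000325) and higher in MDA-MB-468 OlaR cells (1362, 1065 and 1016 against 731.4, 680.8 and 806.7, a log2 fold change of 0.62, adjusted p = 9.42e-07). JUND did the reverse, at 0.48 in SUM1315 (limma adjusted p = 0.00176) and -0.38 in MDA-MB-468 (adjusted p = 0.000128). In each of these comparisons the OlaR and olaparib libraries were apart. The mean of JUNB in untreated parental cells was 3694 in SUM1315 and 1125 in MDA-MB-468, against 1940 and 1147 in OlaR cells. Between the lines the OlaR change differed by -1.20 for JUNB (limma adjusted p = 1.23e-06), by 0.86 for JUND (adjusted p = 5.45e-05) and by 0.85 for FOSL2 (adjusted p = 0.00396). With FOS, EGR1 and JUN this made 6 of the 10 genes, where 20.3% of all 14460 genes in the fit of both lines were called higher and 21.4% lower.

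The small Maf factor MAFF, which lacks a transactivation domain of its own, was the one gene called higher in OlaR cells than in olaparib-treated parental cells of both lines. It stood at 215.0, 218.4 and 182.9 under olaparib and at 321.6, 309.1 and 372.9 in OlaR cells of SUM1315 (log2 fold change 0.70, SE 0.12, limma adjusted p = 1.42e-05). In MDA-MB-468 it stood at 32.9, 32.6 and 47.4 under olaparib and at 76.5, 81.9 and 71.8 in OlaR cells (log2 fold change 1.03, SE 0.21, limma adjusted p = 5.04e-05). Its libraries did not overlap in either line. The mean of MAFF in OlaR cells was under that of untreated parental cells, at 334.5 against 448.6 in SUM1315 and 76.75 against 87.33 in MDA-MB-468. OlaR cells were not tested against untreated cells. The Fos-related subunits FOSL2 (log2 fold change 1.00, limma adjusted p = 2.5e-06) and FOSL1 (0.81, adjusted p = 0.00076) were higher in OlaR cells of SUM1315. Their values in MDA-MB-468 were 0.15 (limma adjusted p = 0.531) and 0.61 (adjusted p = 0.258). Set against untreated SUM1315 cells, the OlaR mean was higher for FOSL2 (245.9 against 122.7) and lower for FOSL1 (130.2 against 152.0). Neither ATF3 nor FOSB was called in either line with all libraries. Without olaparib replicate 1 FOSB was called higher in SUM1315 (1.52, limma adjusted p = 0.0154). The confidence intervals of the log2 change in SUM1315 ran from -0.17 to 0.57 for ATF3 and from -0.36 to 1.78 for FOSB.

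Olaparib alone lowered several of the genes in parental cells and raised none that passed the test. In SUM1315, 7 of the 10 genes were called lower and 0 higher, where 18.9% of all genes tested were called higher and 17.1% lower. In MDA-MB-468, 6 were called lower and 0 higher, where 12.4% of all genes were called higher and 9.11% lower. EGR1, JUN, MAFF and JUNB were on both lists. EGR1 stood at 3159, 3463 and 2664 in untreated SUM1315 libraries and at 1470, 1511 and 1215 under olaparib (log2 fold change -1.14, SE 0.14, limma adjusted p = 5.18e-08). In MDA-MB-468 it stood at 736.4, 828.3 and 813.7 without and 318.5, 280.5 and 380.4 with olaparib (log2 fold change -1.29, SE 0.13, limma adjusted p = 1.88e-11). JUN fell by 0.94 on the log2 scale in SUM1315 (limma adjusted p = 1.11e-08) and by 0.57 in MDA-MB-468 (adjusted p = 1.36e-07). MAFF fell by 1.13 (limma adjusted p = 5.71e-09) and by 1.20 (adjusted p = 1.99e-05). For these 3 genes the groups were apart in both lines.

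FOSL1, a Fos subunit common in mesenchymal tumour cells, fell by 1.03 on the log2 scale in SUM1315 (150.9, 163.4 and 141.8 against 72.8, 83.0 and 66.0, limma adjusted p = 5.82e-05), and had at most 29.8 adjusted reads in any parental library of MDA-MB-468. FOS was 0.75 lower on the log2 scale in MDA-MB-468 (limma adjusted p = 0.00476) and not called in SUM1315 (0.57, adjusted p = 0.352), where the untreated libraries stood at 39.5, 38.3 and 41.4 and the olaparib libraries at 76.0, 71.1 and 39.0. JUNB was 0.60 lower in MDA-MB-468 (limma adjusted p = 1.21e-05), and its call in SUM1315 (-0.34, adjusted p = 0.0329) was lost without untreated replicate 1 (adjusted p = 0.108), untreated replicate 2 (0.159) or olaparib replicate 3 (0.331). ATF3 in SUM1315 (-0.55, limma adjusted p = 0.0177) was lost without olaparib replicate 1 (adjusted p = 0.077) or untreated replicate 1 (0.0757) or 2 (0.0946). FOSB in SUM1315 (-1.40, limma adjusted p = 0.0351) had olaparib libraries at 34.2, 13.4 and 2.00 against 24.0, 44.3 and 23.9, which overlapped. Its call was lost in edgeR (adjusted p = 0.147), in DESeq2 (0.121) and without untreated replicate 2 (0.138) or olaparib replicate 3 (0.494). Without untreated replicate 2 the SUM1315 count was 4. The change with olaparib differed between the lines for 1 of the 10 genes, JUN (-0.37 in SUM1315 minus MDA-MB-468, limma adjusted p = 0.0379), a call lost without any 1 of 6 libraries (untreated replicates 1 and 2 and olaparib replicate 3 of SUM1315, and untreated replicate 1 and olaparib replicates 1 and 3 of MDA-MB-468, adjusted p = 0.0523 to 0.208), where 9.99% of all genes were called higher and 9.89% lower. The JUN difference was also lost in edgeR (adjusted p = 0.0668). The FOS difference (1.32, limma adjusted p = 0.0767) was called with a pseudocount of 5 (adjusted p = 0.014), in edgeR (0.0019) and in DESeq2 (0.000509), and edgeR also called JUND (0.42, adjusted p = 0.0451). The JUND call in MDA-MB-468 (-0.28, limma adjusted p = 0.0123) was lost without untreated replicate 2 (adjusted p = 0.0696) or 3 (0.0901) or olaparib replicate 3 (0.0587).

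**Figure D2:**
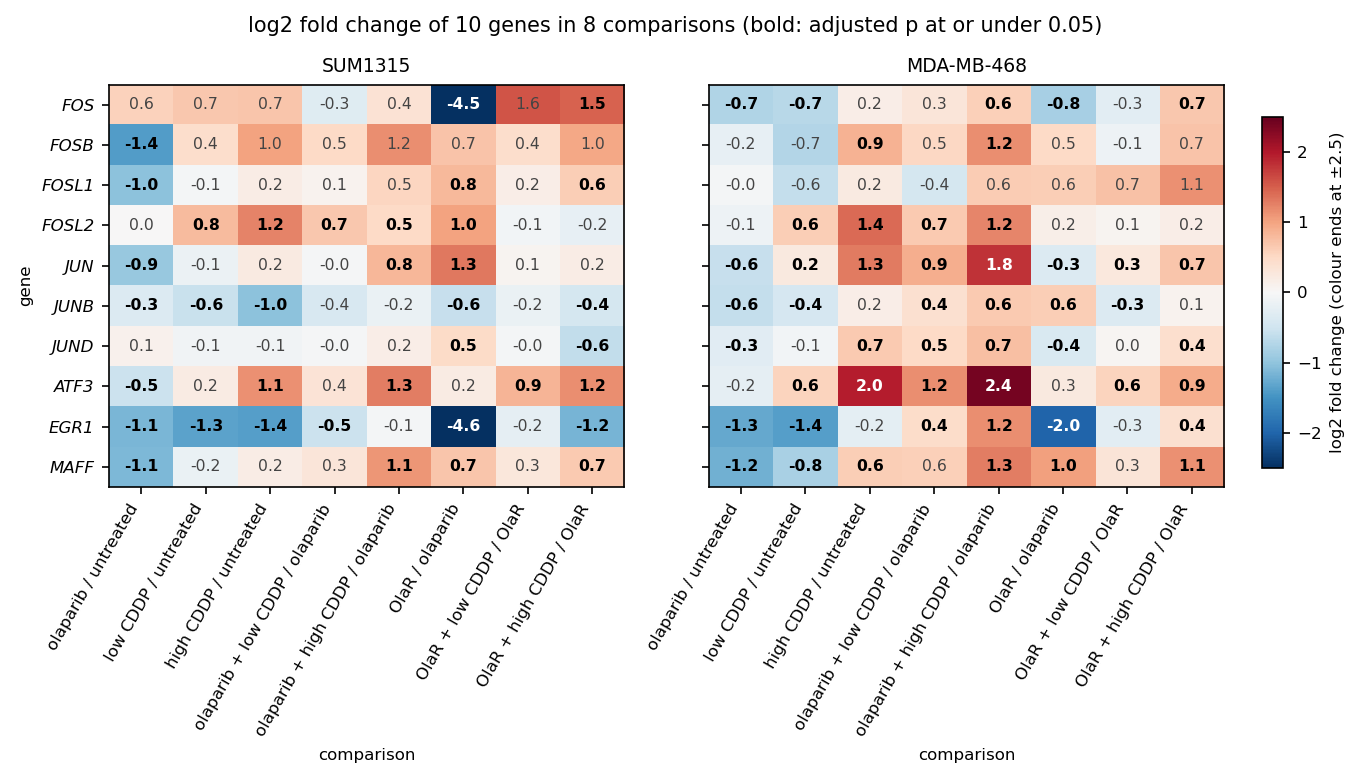
Log2 fold changes of the 10 genes in SUM1315 (left) and MDA-MB-468 (right), on the log2(adjusted read count + 1) scale, with genes in rows and comparisons in columns (first group over second). Bold values passed an adjusted p of 0.05 in limma and colour stops at 2.5 in either direction. In the first column 7 genes of SUM1315 and 6 of MDA-MB-468 have bold values, all of them negative, and the EGR1 values in the OlaR over olaparib column are -4.56 and -2.01.

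CDDP alone was tested against the same untreated libraries as olaparib alone. FOSL2, a Fos subunit that dimerises with Jun proteins, rose with the higher dose in both lines. Its untreated libraries stood at 133.2, 103.6 and 131.3 in SUM1315 and at 46.2, 70.3 and 57.7 in MDA-MB-468, and its libraries at the higher dose at 273.3, 274.1 and 320.5 and at 152.3, 151.9 and 160.1. The log2 fold changes were 1.24 (SE 0.15, limma adjusted p = 6.99e-08) and 1.42 (SE 0.19, adjusted p = 9.42e-08). ATF3, a stress-induced factor of the ATF/CREB family, stood at 109.8, 115.8 and 75.7 in untreated SUM1315 cells and at 239.3, 192.6 and 226.5 with 4 µM CDDP (log2 fold change 1.14, SE 0.18, limma adjusted p = 4.64e-06). In MDA-MB-468 it stood at 64.3, 72.2 and 70.2 without and at 292.2, 270.2 and 254.8 with 2.5 µM CDDP (log2 fold change 1.97, SE 0.17, limma adjusted p = 1.2e-13). None of these 4 comparisons had overlapping libraries.

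The higher dose called 2 genes higher (FOSL2 and ATF3) and 2 lower (JUNB and EGR1) in SUM1315, where 22.2% of all genes were called higher and 21.7% lower, and 6 higher (FOSB, FOSL2, JUN, JUND, ATF3 and MAFF) and 0 lower in MDA-MB-468, where 13.3% were called higher and 11.8% lower. The SUM1315 counts were at the background shares in both directions. JUN stood at 609.7, 677.1 and 683.7 in untreated MDA-MB-468 cells and at 1570, 1606 and 1670 with 2.5 µM CDDP (log2 fold change 1.30, SE 0.08, limma adjusted p = 1.04e-18). In SUM1315 the JUN value was 0.22 (limma adjusted p = 0.0851). EGR1 fell by 1.39 on the log2 scale in SUM1315 (1147, 1268 and 1119 with 4 µM CDDP, limma adjusted p = 6.27e-10), and in MDA-MB-468 the value was -0.25 (adjusted p = 0.153), which edgeR (-0.26, adjusted p = 0.0222) and DESeq2 (-0.26, adjusted p = 0.0264) called lower. JUNB fell by 1.03 in SUM1315, from 3878, 4157 and 3046 to 1758, 1866 and 1761 (limma adjusted p = 4.77e-08). JUND rose by 0.66 in MDA-MB-468 (limma adjusted p = 2.42e-08). The FOSB call there (0.86, limma adjusted p = 0.0208) was lost without untreated replicate 1 (adjusted p = 0.0729) or 2 (0.082) or CDDP replicate 1 (0.0501) or 2 (0.124), and the MAFF call (0.61, adjusted p = 0.0272) without untreated replicate 1 (0.174) or CDDP replicate 2 (0.0633) or 3 (0.111).

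The change with the higher dose differed between the lines for 5 of the 10 genes, all with lower values in SUM1315, where 13.7% of all genes were called higher and 13.9% lower. The differences on the log2 scale were -1.08 for JUN (limma adjusted p = 1.33e-08), -1.20 for JUNB (adjusted p = 2.99e-06), -0.75 for JUND (adjusted p = 0.000678), -0.83 for ATF3 (adjusted p = 0.00917) and -1.14 for EGR1 (adjusted p = 2.89e-05). The higher dose was 4 µM in one line and 2.5 µM in the other, so line and dose cannot be told apart.

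At the lower CDDP dose EGR1 fell in both lines, to 1254, 1474 and 980.1 in SUM1315 (log2 fold change -1.34, limma adjusted p = 3.06e-09) and to 286.0, 326.8 and 307.5 in MDA-MB-468 (-1.37, adjusted p = 3.17e-12). In SUM1315, 1 gene was called higher (FOSL2, 0.79, limma adjusted p = 0.000137) and 2 lower (EGR1 and JUNB), where 19.4% of all genes were called higher and 14.5% lower, so these counts too were near the background. In MDA-MB-468, 3 were called higher (FOSL2, JUN and ATF3) and 4 lower (FOS, JUNB, EGR1 and MAFF), where 10.6% were called higher and 9.41% lower. EGR1 in MDA-MB-468 was thus low at 1 µM and stood at 663.6, 692.1 and 643.8 with 2.5 µM, still under every untreated library. The 7 calls in MDA-MB-468 came to 4 without untreated replicate 1, where FOSL2 (limma adjusted p = 0.129), JUN (0.14) and ATF3 (0.0513) were lost. Without CDDP replicate 2 JUN (adjusted p = 0.0965), ATF3 (0.153) and MAFF (0.0504) were lost, without CDDP replicate 3 FOSL2 (0.0565), and without untreated replicate 2 JUNB (0.055).

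**Figure D3:**
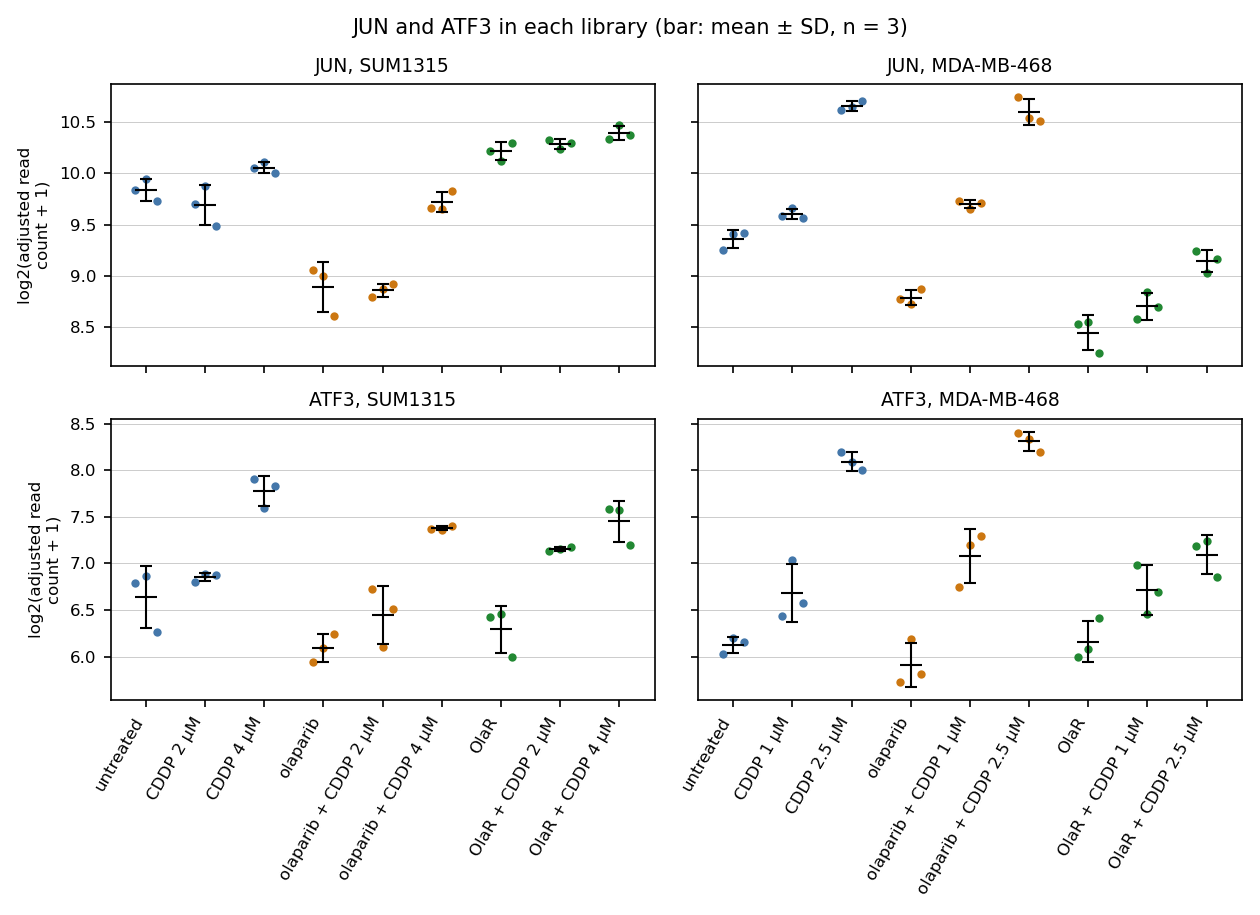
JUN (top) and ATF3 (bottom) in SUM1315 (left) and MDA-MB-468 (right), with log2(adjusted read count + 1) on the vertical axis, points for single libraries and bars for the mean ± SD of the 3 libraries on that scale. ATF3 is higher with the higher CDDP dose in all 3 backgrounds of both lines, and JUN in SUM1315 lies between 1116 and 1418 in all 9 OlaR libraries.

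CDDP added to olaparib raised genes of the group in both lines. At the higher dose 9 of the 10 genes, all but FOSL1, were called higher in MDA-MB-468 and 0 lower, where 10.1% of all genes were called higher and 13.1% lower. In SUM1315, 4 were called higher (FOSL2, JUN, ATF3 and MAFF) and 0 lower, where 4.35% of all genes were called higher and 4.09% lower. ATF3 stood at 52.1, 71.7 and 55.3 under olaparib and at 336.5, 322.4 and 292.7 with CDDP in MDA-MB-468 (log2 fold change 2.40, SE 0.17, limma adjusted p = 8.51e-17). In SUM1315 it stood at 60.6, 67.3 and 75.0 under olaparib and at 164.8, 163.0 and 167.5 with CDDP (1.28, SE 0.18, limma adjusted p = 1.1e-05). JUN reached 1712, 1491 and 1458 in MDA-MB-468 (1.81, SE 0.08, limma adjusted p = 3.34e-24) and 811.3, 806.6 and 909.8 in SUM1315 (0.83, SE 0.10, adjusted p = 1.67e-06). MAFF rose by 1.27 in MDA-MB-468 (limma adjusted p = 4.98e-06) and by 1.09 in SUM1315 (adjusted p = 1.15e-07). None of these 6 comparisons had overlapping libraries. The FOSL2 call in SUM1315 (0.51, limma adjusted p = 0.0363) was lost when any 1 of 5 libraries was left out (adjusted p = 0.0704 to 0.12), olaparib replicate 2 being the exception. FOSB in SUM1315 was called higher only without olaparib replicate 1 (1.98, limma adjusted p = 0.0179). The FOS call in MDA-MB-468 (0.60, adjusted p = 0.0254) was lost without olaparib replicate 2 (0.0969) or 3 (0.148) or combination replicate 1 (0.0884).

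EGR1 changed differently with CDDP on olaparib than on untreated cells. The untreated libraries behind the tests of olaparib alone and CDDP alone also enter the difference given below, so these results are not independent. The EGR1 mean of untreated SUM1315 cells was 3095, against 963.3 to 1399 in the other parental conditions. For MDA-MB-468 it was 792.8, against 306.7 to 724.4. In MDA-MB-468 EGR1 rose from 318.5, 280.5 and 380.4 under olaparib to 735.6, 700.9 and 736.8 with 2.5 µM CDDP (log2 fold change 1.16, SE 0.13, limma adjusted p = 2.52e-10). In SUM1315 the libraries with 4 µM CDDP on olaparib (1395, 1301 and 1326) overlapped those with olaparib alone, at -0.06 (limma adjusted p = 0.87). The change with CDDP on olaparib minus that on untreated cells was 1.33 in SUM1315 (SE 0.19, limma adjusted p = 5.12e-06) and 1.41 in MDA-MB-468 (SE 0.18, adjusted p = 3.11e-08). By this difference 4 of the 10 genes were called higher (JUN, JUNB, EGR1 and MAFF) and 1 lower (FOSL2) in SUM1315, where 9.92% of all genes were called higher and 11.6% lower, and 3 higher (JUN, JUNB and EGR1) and 0 lower in MDA-MB-468, where 8.14% were called higher and 12.0% lower. The JUN values were 0.61 (limma adjusted p = 0.00293) and 0.51 (adjusted p = 0.000503). The JUNB values were 0.85 (limma adjusted p = 0.000613) and 0.48 (adjusted p = 0.0137), and the second was lost without untreated replicate 2 (adjusted p = 0.0879) or CDDP replicate 1 (0.0549).

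The change with the higher dose on olaparib differed between the lines for 4 of the 10 genes, again lower in SUM1315, where 0.996% of all genes were called higher and 0.871% lower. These were JUN (-0.98, limma adjusted p = 2.08e-06), JUNB (-0.82, adjusted p = 0.0104), ATF3 (-1.12, adjusted p = 0.00687) and EGR1 (-1.21, adjusted p = 0.000176). JUND (-0.58, limma adjusted p = 0.0617) was called with a pseudocount of 5 (adjusted p = 0.0492), in edgeR (0.0279) and in DESeq2 (0.0182). Conversely, olaparib added to the higher CDDP dose gave 2 genes called higher (JUNB, 0.51, and JUND, 0.36) and 3 lower (FOSL2, -0.73, FOSL1, -0.69, and JUN, -0.34) in SUM1315, where 6.32% of all genes were called higher and 6.52% lower. In MDA-MB-468 limma called 0 of the 10 genes, where 4.63% of all genes were called higher and 7.29% lower. JUND and MAFF had an unadjusted p under 0.05, and the share over all genes at that threshold was not computed. On the recovered reads edgeR and DESeq2 each called 1, MAFF, where they called 1998 and 2007 of the 13012 genes. Leaving out any 1 library of that SUM1315 comparison gave 2 to 4 calls in place of 5. JUND was lost without each of the 6 libraries (limma adjusted p up to 0.202), JUN without 5 of them, all but combination replicate 3 (up to 0.104), and FOSL1 without CDDP replicate 3 (0.116) or combination replicate 2 (0.0534).

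At the lower dose on olaparib 6 genes were called higher and 0 lower in MDA-MB-468, where 2.30% of all genes were called higher and 2.97% lower, led by ATF3 (1.17, limma adjusted p = 1.66e-06), JUN (0.91, adjusted p = 2.48e-12) and JUND (0.50, adjusted p = 3.81e-05). FOSL2 (0.65), JUNB (0.41) and EGR1 (0.45) were the other called genes, and all 3 were lost without combination replicate 1 (limma adjusted p = 0.112, 0.225 and 0.114). FOSL2 was also lost without combination replicate 3 (0.148) or olaparib replicate 1 (0.175) or 3 (0.109), JUNB without olaparib replicate 2 (0.0755), and EGR1 without combination replicate 3 (0.109) or olaparib replicate 1 (0.0773) or 2 (0.195). In SUM1315, 1 was called higher (FOSL2, 0.67, limma adjusted p = 0.0125) and 1 lower (EGR1, -0.53, adjusted p = 0.0243), where 2.09% of all genes were called higher and 1.67% lower. Both were lost without olaparib replicate 1 (limma adjusted p = 0.0568 for FOSL2 and 0.108 for EGR1) or without combination replicate 2 (0.106 and 0.0551), EGR1 also without combination replicate 1 (0.0766) or 3 (0.0736) or olaparib replicate 2 (0.127), and the count over 1 library left out was 0 to 3.

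CDDP in OlaR cells was tested against OlaR cells without CDDP. At the higher dose 4 genes were called higher (FOS, FOSL1, ATF3 and MAFF) and 3 lower (JUNB, JUND and EGR1) in SUM1315, where 7.13% of all genes were called higher and 9.61% lower, and 6 higher (FOS, JUN, JUND, ATF3, EGR1 and MAFF) and 0 lower in MDA-MB-468, where 7.43% were called higher and 11.2% lower. ATF3 stood at 84.7, 86.9 and 63.0 in SUM1315 OlaR cells and at 190.8, 189.4 and 145.5 with 4 µM CDDP (log2 fold change 1.16, SE 0.18, limma adjusted p = 2.44e-05). In MDA-MB-468 it stood at 62.6, 66.6 and 84.1 without and at 144.8, 150.3 and 114.5 with 2.5 µM CDDP (0.93, SE 0.17, limma adjusted p = 2.69e-05). MAFF rose to 503.9, 576.0 and 499.9 in SUM1315 (0.65, limma adjusted p = 0.000233) and to 185.4, 146.9 and 181.3 in MDA-MB-468 (1.14, adjusted p = 5.35e-05). The CDDP libraries of ATF3 and MAFF lay above the OlaR libraries without CDDP in both lines.

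JUND moved in opposite directions in the OlaR cells of the lines, and EGR1 fell in those of SUM1315. EGR1 went from 56.4, 64.6 and 53.5 to 27.2, 23.4 and 25.9 in SUM1315 (log2 fold change -1.16, SE 0.14, limma adjusted p = 2.21e-07). In MDA-MB-468 it was 104.3, 93.4 and 120.9 against 69.8, 92.5 and 78.9 (0.40, SE 0.13, limma adjusted p = 0.0206), a call lost in edgeR (adjusted p = 0.137), in DESeq2 (0.103) and without OlaR replicate 1 (0.142) or 3 (0.0535) or CDDP replicate 3 (0.152). JUND fell from 2970, 2760 and 2834 to 1499, 2209 and 1945 in SUM1315 (-0.62, limma adjusted p = 0.000554) and rose from 1406, 1333 and 1496 to 1968, 1820 and 1900 in MDA-MB-468 (0.43, adjusted p = 0.000145). The difference between the lines was -1.56 for EGR1 (limma adjusted p = 6.29e-06), -1.04 for JUND (adjusted p = 0.00023) and -0.52 for JUN (adjusted p = 0.0127), which made 3 of the 10 genes, where 2.56% of all genes were called higher and 2.88% lower. The JUN difference was lost without MDA-MB-468 OlaR replicate 3 (limma adjusted p = 0.0582).

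Some calls in SUM1315 OlaR cells rested on few reads or on single libraries. The FOS call (1.48, limma adjusted p = 0.0242) came from 0, 3 and 1 reads against 8, 7 and 1, which overlapped, and it was lost in edgeR (adjusted p = 0.192), in DESeq2 (0.16) and without OlaR replicate 1 (0.212) or 3 (0.0524) or CDDP replicate 1 (0.13) or 2 (0.108). Over the summed libraries the share of FOS reads was 3.6 times as high with 4 µM CDDP as without (95% exact interval 1.16 to 14.8, counting error only). FOSL1 (0.61, limma adjusted p = 0.0242) was lost without OlaR replicate 1 (adjusted p = 0.107) or 2 (0.0665) or CDDP replicate 1 (0.0779) or 3 (0.0687). JUNB (-0.44, limma adjusted p = 0.0144) was lost without OlaR replicate 1 (0.0551) or CDDP replicate 1 (0.0773), and without either of these libraries the count of 7 came to 4. FOS in MDA-MB-468 (0.66, adjusted p = 0.0151) was lost without OlaR replicate 3 (0.178) or CDDP replicate 1 (0.0695). At the lower dose 1 gene was called in SUM1315 OlaR cells (ATF3, 0.86, limma adjusted p = 0.0075, lost without OlaR replicate 3 with adjusted p = 0.0756), where 0.548% of all genes were called higher and 0.876% lower. In MDA-MB-468, where 1.84% were called higher and 2.91% lower, the 3 calls were JUN (0.26, adjusted p = 0.0401), ATF3 (0.55, adjusted p = 0.0396) and JUNB (-0.34, adjusted p = 0.0393), and each was lost in DESeq2 (adjusted p = 0.082, 0.0543 and 0.163). Each was also lost without 3 to 5 of the 6 single libraries, CDDP replicate 3 among them for all 3 genes (limma adjusted p = 0.0904, 0.0902 and 0.13).

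**Figure D4:**
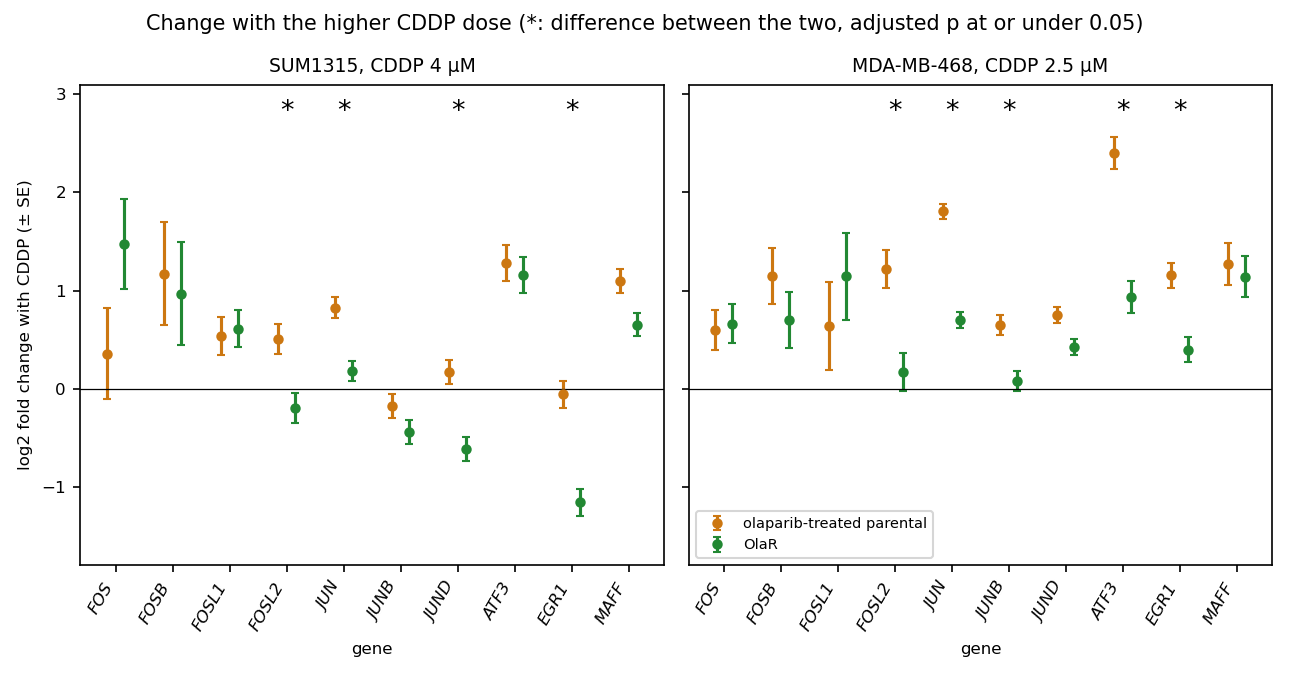
Log2 fold change (± SE, on the log2(adjusted read count + 1) scale) of the 10 genes with the higher CDDP dose in olaparib-treated parental cells (orange) and in OlaR cells (green) of SUM1315 (left) and MDA-MB-468 (right). A star marks a difference between both changes with an adjusted p of at most 0.05. JUN, FOSL2 and EGR1 are starred in both lines, with the green point below the orange one, and ATF3 is starred in MDA-MB-468.

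The response to the higher CDDP dose was smaller or more negative in OlaR cells than in olaparib-treated parental cells for several of the genes. By this difference 4 of the 10 genes were called lower and 0 higher in SUM1315 (FOSL2, JUN, JUND and EGR1), where 1.99% of all genes were called higher and 4.41% lower, and 5 lower and 0 higher in MDA-MB-468 (FOSL2, JUN, JUNB, ATF3 and EGR1), where 7.58% were called higher and 7.47% lower. JUN rose by 1.81 on the log2 scale in olaparib-treated parental MDA-MB-468 cells and by 0.70 in OlaR cells, a difference of -1.11 (SE 0.11, limma adjusted p = 1.29e-10). In SUM1315 the JUN changes were 0.83 and 0.18, a difference of -0.64 (SE 0.15, limma adjusted p = 0.0067), and its OlaR libraries without CDDP (1116 to 1260) were already above every parental library. EGR1 differed by -1.10 in SUM1315 (limma adjusted p = 0.000436) and by -0.76 in MDA-MB-468 (adjusted p = 0.00196). ATF3 differed by -1.47 in MDA-MB-468 (SE 0.23, limma adjusted p = 6.7e-06), and in SUM1315 the difference was -0.12 with a 95% interval from -0.64 to 0.40 (adjusted p = 0.837). FOSL2 rose with CDDP in parental cells of both lines and had values of -0.20 (limma adjusted p = 0.428) and 0.17 (adjusted p = 0.601) in OlaR cells. The FOSL2 difference was -1.05 in MDA-MB-468 (limma adjusted p = 0.00525). In SUM1315 it was -0.70 (adjusted p = 0.0472), a call lost in edgeR (0.0664) and without any 1 of 10 of the 12 libraries (adjusted p up to 0.115), OlaR + CDDP replicate 3 and olaparib replicate 2 being the exceptions. JUND differed by -0.78 in SUM1315 (limma adjusted p = 0.00468) and JUNB by -0.57 in MDA-MB-468 (adjusted p = 0.00431).

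**Figure D5:**
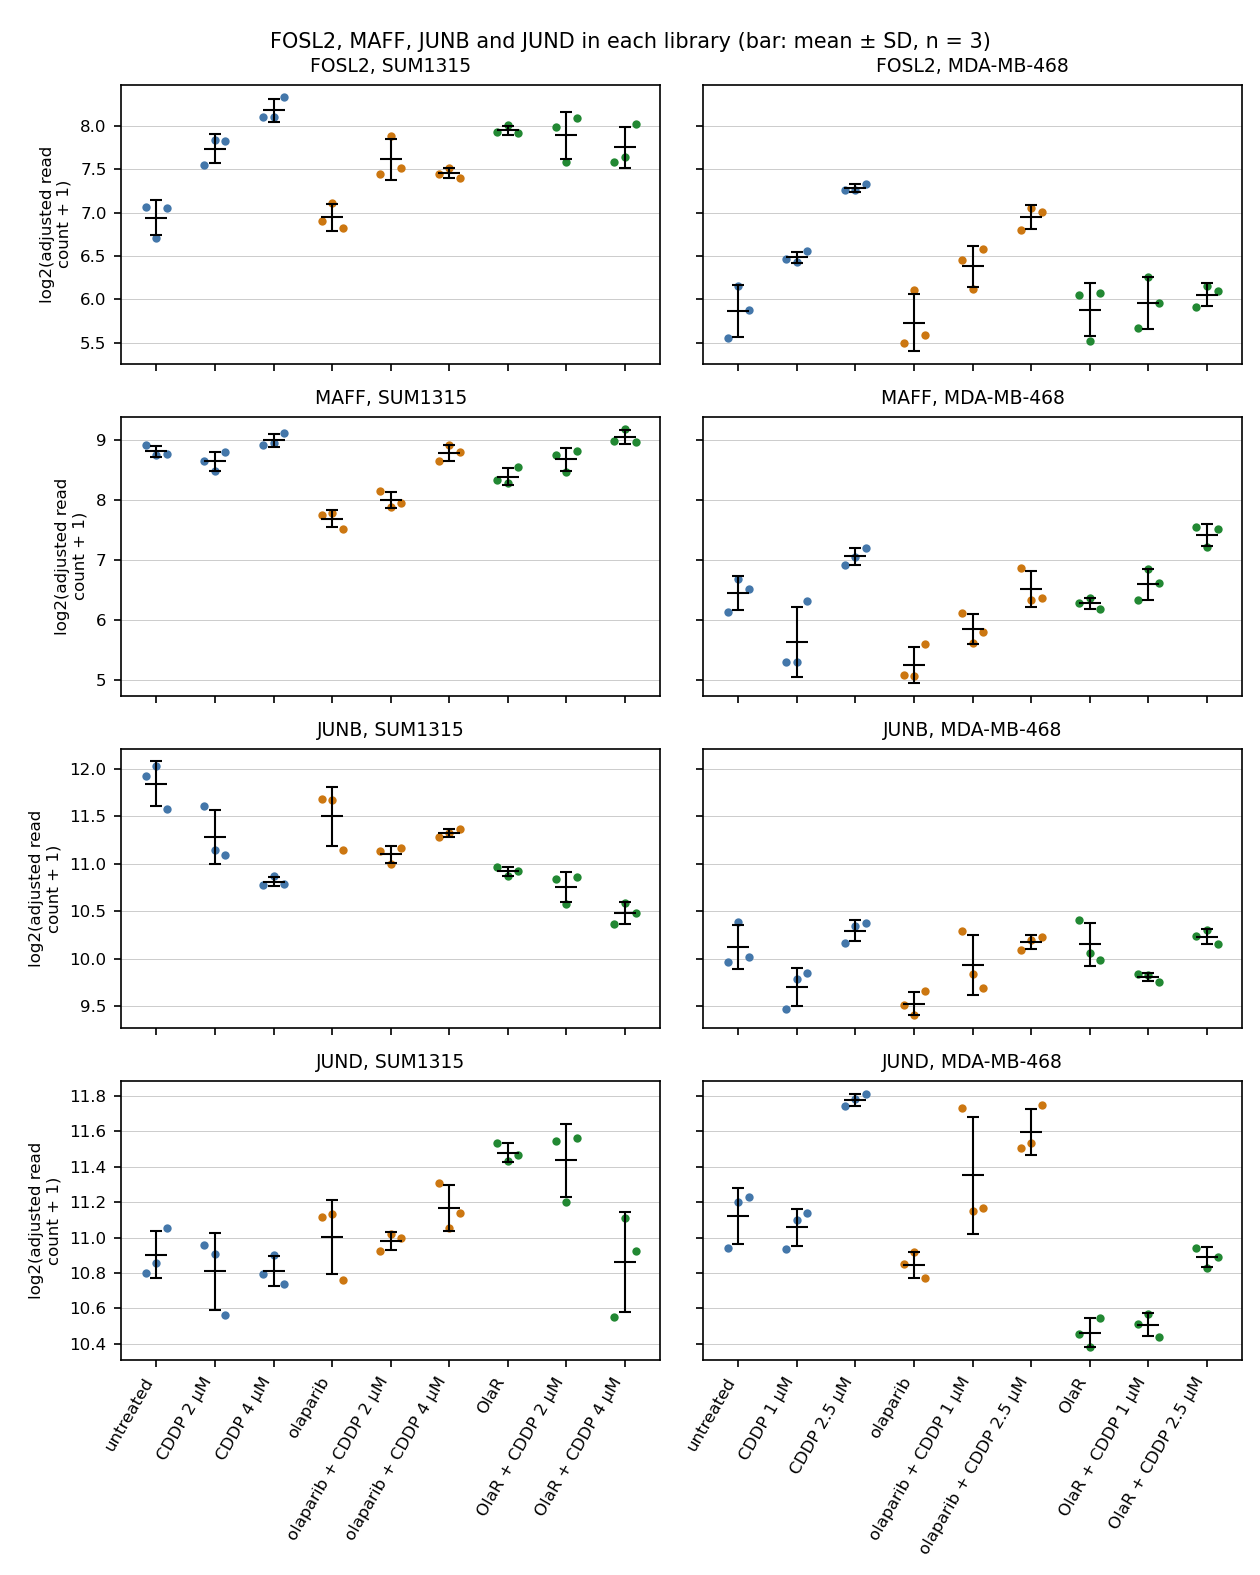
FOSL2, MAFF, JUNB and JUND in each library of SUM1315 (left) and MDA-MB-468 (right), as log2(adjusted read count + 1), with bars for the mean ± SD of the 3 libraries on that scale. FOSL2 lies between 191.0 and 272.2 in the 9 SUM1315 OlaR libraries with or without CDDP, and MAFF has its lowest condition mean under olaparib alone in both lines.

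In the order of condition means within a line, most neighbouring conditions had overlapping libraries. For EGR1, 4 of the 8 neighbouring pairs in SUM1315 and 5 of 8 in MDA-MB-468 did not overlap, and for JUN 4 and 5. For FOS in SUM1315 only 1 pair was apart, the untreated parental cells and the OlaR cells with 2 µM CDDP. For JUND in SUM1315 and for FOSB, FOSL1 and JUNB in MDA-MB-468 it was 0 of 8. The conditions were sorted by their own means, and overlap was not counted for the other genes tested. These counts therefore have no background, and neither do the statements above that compared groups did not overlap. JUND had the narrowest range of condition means in SUM1315 (1.59-fold from 1799 to 2854), and JUNB in MDA-MB-468 (739.6 to 1258).

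Genes with the most similar patterns were taken from 2510 genes by Pearson correlation over the 18 condition means, each centred within its line. The means share lines, untreated or OlaR backgrounds and library depth, and the correlations are descriptions. FOS and EGR1 had an r of 0.90 with each other. The genes most like EGR1 were PTER (r = 0.97), N4BP2 (0.97) and CARS (0.96), and those most like FOS were RCL1, CUL5 and RARRES3 (0.96, 0.96 and 0.95). JUN was most like DUSP8, a phosphatase that acts on JNK and p38 (0.94). ATF3 was most like ZNF367 (0.89) and CCNE2, a cyclin of the G1/S transition (0.81). MAFF was most like GADD45A (0.86) and GDF15 (0.82), both known for induction by stress. FOSL2 was most like MLLT11 (0.84), JUNB like RELB, a subunit of NF-κB (0.84), JUND like SAMD4A (0.86), FOSB like ZNF367 (0.84) and FOSL1 like C2CD4C (0.85).

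Other immediate early genes were counted in the same comparisons, and no test compared them with the 10 genes. Of 21 listed genes, 20 were tested in SUM1315 and 19 in MDA-MB-468. With olaparib alone 2 were called higher and 10 lower in SUM1315 (median log2 fold change -0.21, all genes -0.00, 18.9% of all genes higher and 17.1% lower) and 0 higher and 10 lower in MDA-MB-468 (median -0.52, all genes 0.01, 12.4% higher and 9.11% lower). With the higher CDDP dose on olaparib 9 were called higher and 0 lower in SUM1315 (median 0.52, all genes -0.01, 4.35% higher and 4.09% lower) and 11 higher and 1 lower in MDA-MB-468 (median 0.79, all genes -0.00, 10.1% higher and 13.1% lower). With CDDP alone at that dose the calls were mixed, 9 higher and 5 lower in SUM1315 (median 0.39, 22.2% of all genes higher and 21.7% lower) and 6 higher and 4 lower in MDA-MB-468 (median -0.12, 13.3% higher and 11.8% lower). IER2 fell in SUM1315 (-1.04, limma adjusted p = 1.06e-08) together with EGR3 (-1.08, adjusted p = 0.0331), while the nuclear receptors NR4A1 (1.88, adjusted p = 6.97e-05) and NR4A3 (1.85, adjusted p = 0.0478) rose. NR4A3 was low, at a mean of 19.79 (SD 8.767) with CDDP against 6.982 (SD 8.462) without. For the listed genes only limma results are given. In MDA-MB-468 the MAP kinase phosphatase DUSP1 rose by 2.01 (limma adjusted p = 1.35e-09) and KLF2 by 1.52 (adjusted p = 0.000299), and CCN2 fell by 1.31 (adjusted p = 2.52e-07). In OlaR cells the higher dose called 1 higher in SUM1315 (NR4A2, 0.83, limma adjusted p = 0.00243) and 7 in MDA-MB-468 (DUSP1 by 0.97, adjusted p = 0.00155), and 0 lower in either line, where 7.13% of all genes were called higher and 9.61% lower in SUM1315 and 7.43% and 11.2% in MDA-MB-468.

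Among the 16 listed kinases and factors upstream, all of them tested in both lines, SRF was called lower with the higher CDDP dose alone in SUM1315 (-1.24, limma adjusted p = 6.96e-06) and in MDA-MB-468 (-0.33, adjusted p = 0.000914), and higher with CDDP in MDA-MB-468 OlaR cells (0.36, adjusted p = 0.000461). With the higher dose alone 4 of the 16 were called higher and 3 lower in SUM1315 (22.2% and 21.7% of all genes) and 2 higher and 1 lower in MDA-MB-468 (13.3% and 11.8%), which is near the background. In OlaR cells the higher dose called 1 higher and 4 lower in SUM1315, among them the JNK kinase MAP2K7 (-0.62, limma adjusted p = 0.000345), and 1 higher and 1 lower in MDA-MB-468, where the shares over all genes were 7.13% higher and 9.61% lower in SUM1315 and 7.43% and 11.2% in MDA-MB-468. The same shares over all genes stand behind the counts of the following lists at this dose. Of 18 listed AP-1 targets, 16 were tested in SUM1315 and 11 in MDA-MB-468. With the higher dose alone 7 were called higher and 4 lower in SUM1315, the cytokine IL6 (2.16, limma adjusted p = 4.8e-08) and the protease PLAU (1.53, adjusted p = 1.7e-05) among the first and MMP13 (-1.48, adjusted p = 0.00242) and HMOX1 (-1.13, adjusted p = 1.28e-07) among the second. In MDA-MB-468, 5 were called higher and 2 lower, with HBEGF at 1.72 (limma adjusted p = 0.00128) and HMOX1 at -0.61 (adjusted p = 4.49e-06). In OlaR cells the higher dose called 5 higher and 2 lower in SUM1315 (LIF, 1.11, limma adjusted p = 0.024, and CCND1, -0.37, adjusted p = 0.00618) and 4 higher and 0 lower in MDA-MB-468 (HBEGF, 1.27, adjusted p = 0.0229). Of 11 listed basic leucine zipper partners, 10 were tested in SUM1315 and 8 in MDA-MB-468, and with the higher dose alone 2 were called higher and 1 lower in SUM1315 (JDP2, -1.05, limma adjusted p = 0.000365) and 1 higher in MDA-MB-468 (BATF3, 2.00, adjusted p = 0.0117). BATF3 was low there, at a mean of 12.64 (SD 2.764) with CDDP against 3.992 (SD 4.791) without. MAFG was called higher with the higher dose in OlaR cells of both lines (0.42, limma adjusted p = 0.037, and 0.41, adjusted p = 0.00162).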

How the data were processed

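RNA from 54 libraries of 18 conditions was read from transcript 3′ ends (QuantSeq). The submitters' processing notes name CASAVA 1.8.2, FastQC, STAR, HTSeq, edgeR and the build hg38; the strand setting is not given in the sources used here, and genes that overlap or have near-identical copies may share reads. The deposited table holds a normalized signal per gene: the authors' edgeR read counts, adjusted within each condition to a common library size (pseudo-counts, whole reads before adjustment). Deposited tables of the authors' own comparisons (log2 fold changes and p-values) were not used. Inverting the adjustment at the dispersion in the table gave whole reads for 1483380 of 1483380 values (100%, relative tolerance 1e-06).

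For each line, log2(adjusted count + 1) was fitted over its 27 libraries and 9 conditions with limma 3.58.1 (trend, R 4.3.3) for the genes that reached 10 adjusted reads in 3 or more libraries. The 54 libraries were fitted together for differences between lines. Benjamini-Hochberg adjustment covered all genes tested, at 0.05. Alternatives were edgeR 4.0.16 (quasi-likelihood, TMM) and DESeq2 1.42.0 on the recovered reads, a pseudocount of 5, no filter, a fold of at least 2, a replicate block and leaving out each library. On simulated data limma recovered the folds and called more unchanged genes than edgeR did for the higher CDDP dose in MDA-MB-468 OlaR cells, whose libraries were the shallowest. Limma calls in that comparison may therefore hold more unchanged genes than the threshold of 0.05 implies. Limma also called more of all genes than edgeR in the other comparisons of CDDP in OlaR cells. At the higher dose in SUM1315 limma called 937 higher and 1262 lower, and edgeR called 1702 in all. At the lower dose the limma calls were 72 and 115 in SUM1315 (edgeR 89) and 240 and 379 in MDA-MB-468 (edgeR 377). The number of genes called with CDDP in OlaR cells thus depended on the test in both lines.

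Replicate numbers were not used as pairs in the main fit, because same-numbered libraries correlated only at -0.05 to 0.16 over 54 pairs of libraries. The highest values were 0.142 and 0.1556, for replicates 2 and 3 of SUM1315 at the lower CDDP dose and untreated. Low correlations do not exclude shared cultures or handling. Libraries were multiplexed in batches of 27, and which shared one is not stated, so levels were not tested between lines. If OlaR and parental libraries of a line were in different batches, batch and resistance cannot be told apart. Replicates of a condition differed by more than counting noise in all 54 pairs (chi-square per degree of freedom 1.60 to 22.1, median 3.23), so counting error is only part of the spread. The pairs of untreated SUM1315 libraries gave 3.592, 15.2 and 20.11, and those of SUM1315 with 2 µM CDDP gave 7.282, 9.933 and 22.07. The 10 genes and the lists were chosen with earlier results of these data known. All 10 were fitted in every comparison. The naming rule also took the 3 most similar genes of each (SD of centred means of at least 0.5) and, of each list, up to 2 called genes per direction with the largest change; the text names some of these.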

Additional observations from a re-analysis of the deposited data

Results flagged for a closer look

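A test of a difference between groups marked 28 values, in log2 units and called by limma, with Benjamini-Hochberg adjustment. The response to the higher CDDP dose in OlaR cells minus that in olaparib-treated parental cells was lower for FOSL2 (-0.70), JUN (-0.64), JUND (-0.78) and EGR1 (-1.10) in SUM1315, and for FOSL2 (-1.05), JUN (-1.11), JUNB (-0.57), ATF3 (-1.47) and EGR1 (-0.76) in MDA-MB-468.

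SUM1315 minus MDA-MB-468, the response to the higher CDDP dose alone differed for JUN (-1.08), JUNB (-1.20), JUND (-0.75), ATF3 (-0.83) and EGR1 (-1.14). On olaparib it differed for JUN (-0.98), JUNB (-0.82), ATF3 (-1.12) and EGR1 (-1.21). In OlaR cells it differed for JUN (-0.52), JUND (-1.04) and EGR1 (-1.56). The response to olaparib differed for JUN (-0.37, adjusted p = 0.0379), a call lost without SUM1315 untreated replicate 1 (adjusted p = 0.0557) or 2 (0.0938) or olaparib replicate 3 (0.208), or MDA-MB-468 untreated replicate 1 (0.11) or olaparib replicate 1 (0.0523) or 3 (0.0997). OlaR cells minus olaparib-treated parental cells differed for FOS (-3.69), FOSL2 (0.85), JUN (1.67), JUNB (-1.20), JUND (0.86) and EGR1 (-2.56). Doses differed between the lines, so line and dose cannot be told apart.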

How the results depend on the processing

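Of 270 values (10 genes in 27 comparisons), 126 were called and none reversed. Of the 126, 92 stayed called in edgeR, in DESeq2, with a pseudocount of 5, with no filter, with the block and without each single library, and 75 did not reach a fold of 2. Calls were lost or gained for 7 and 6 values in edgeR, 7 and 6 in DESeq2, 1 and 3 with a pseudocount of 5, 17 and 0 with no filter and 3 and 0 with the replicate block. The block ended JUND for olaparib on CDDP (adjusted p = 0.0579) and FOSL2 for the OlaR difference (0.0501) in SUM1315, and JUN for the lower dose in MDA-MB-468 OlaR cells (0.0504). Nothing states that libraries with the same replicate number share more than that label. Each left-out library refit limma on the rest.

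Requiring a fold of at least 2, the called genes in SUM1315 came to 4 for olaparib, 1 for the lower and 0 for the lower dose on olaparib, 2 for the higher dose on olaparib, 0 for olaparib on CDDP, 4 for OlaR against olaparib, 0 and 3 for the lower and higher dose in OlaR, 1 for the OlaR difference and 1 for the olaparib difference. In MDA-MB-468 they came to 2 for olaparib, 1 and 3 for the lower and higher dose, 1 for the lower dose on olaparib, 2 for OlaR against olaparib, 0 and 1 for the doses in OlaR, 3 for the OlaR difference and 1 for the olaparib difference. Between lines they came to 3 for the higher dose, 2 on olaparib and 0 for olaparib. The share over all genes was not computed at a fold of 2, so these counts have no background. With no filter MDA-MB-468 had 3 for the lower dose on olaparib (480 over all genes) and 0 for the lower dose in OlaR (456). For the latter edgeR had 1 (377) and DESeq2 0 (476). For olaparib on CDDP in MDA-MB-468 edgeR and DESeq2 had 1 each (1998 and 2007 over all genes). For olaparib between lines a pseudocount of 5, edgeR and DESeq2 each had 2 (3123, 3057 and 3276 over all genes). Further gained calls were JUNB (adjusted p = 0.043) and FOSB (0.0417) in DESeq2 for the lower dose on olaparib and for olaparib on CDDP in SUM1315, and FOSL1 with a pseudocount of 5 for the higher dose in OlaR (0.0273) and MAFF in edgeR for the olaparib difference (0.0445) in MDA-MB-468.

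With 1 library left out, the counts in SUM1315 were 4 to 7 (olaparib), 3 to 3 and 4 to 4 (lower and higher dose), 0 to 3 and 3 to 4 (on olaparib), 2 to 4 (olaparib on CDDP), 8 to 9 (OlaR against olaparib), 0 to 2 and 4 to 6 (in OlaR), 3 to 4 (OlaR difference) and 5 to 5 (olaparib difference). In MDA-MB-468 they were 5 to 6, 4 to 7 and 4 to 6, 3 to 6 and 8 to 9, 0 to 1, 6 to 6, 0 to 2 and 4 to 6, 5 to 6 and 2 to 4. Between lines they were 5 to 5 (higher dose), 4 to 5 (on olaparib), 2 to 4 (in OlaR), 0 to 2 (olaparib) and 6 to 6 (OlaR against olaparib). The share over all genes was not computed with a library left out, so these ranges have no background. Depth limits FOS in SUM1315 OlaR cells and FOSB and FOSL1 in MDA-MB-468, whose adjusted counts are low.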
